A study of Drosophila melanogaster with 2 samples.

Results

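The genes for the proteins of the cytoplasmic ribosome are described here by the binding of the emc protein near their starts in fly embryos. They were taken as every protein-coding gene on the 6 chromosomes 2L, 2R, 3L, 3R, 4 and X whose symbol begins with RpL or RpS, which leaves out the mitochondrial genes with the prefix mRp. The rule gave 92 of 13945 protein-coding genes, of which 54 carry the letter of the large subunit and 38 that of the small subunit. Whole Drosophila melanogaster embryos of 0 to 24 h, male and female pooled, carried a stable transgene for extra macrochaetae (emc) with GFP at its C-terminus, and chromatin was sonicated and precipitated with an antibody against GFP. The 2 samples are biological replicates of 1 group, which the labels number 1 and 3, and no wild-type, tag-only or input library was analysed here, so the comparisons are between genes and between the replicates. The labels do not name the promoter of the transgene or say how many embryos a collection held, and a signal from whole embryos cannot be assigned to a cell type. The peak lists used carry no read depth.

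Each ribosome joins a large subunit, which links amino acids, to a small subunit, which reads the messenger RNA. Most proteins of both are needed in equal numbers. In Drosophila many of these genes start transcription within a pyrimidine-rich initiator, the TCT motif, in place of the usual initiator, and mutations in many of them cause the dominant Minute phenotype of slow growth and short bristles. The emc protein is a helix-loop-helix protein without a basic region, so it pairs with basic helix-loop-helix proteins such as Daughterless and is not known to contact DNA itself.

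The promoters of 4 genes with strong peaks are shown first as examples, and the spacing of summits from motifs was not examined over all members. They are the members with the highest signal outside arms from which no sequence is printed and with 120 or more bases before the start that hold at most 30 annotated untranslated bases. Each runs 5′ to 3′ on the strand of the gene in the Release 6 assembly (dm6) of RefSeq, and ends with 20 bases from the annotated start on. Capitals mark the E-box CANNTG, the site of basic helix-loop-helix dimers, and the TCT initiator, a C followed by TTT with a pyrimidine at the 2 positions before and after. The RpS27 stretch is chr3R:25247495-25247664 on the reverse strand, that of RpL23A chr3L:1668635-1668804 on the reverse strand, that of RpL14 chr3L:8600870-8601025 on the forward strand and that of RpL34b chr3R:9401207-9401376 on the reverse strand.
RpS27: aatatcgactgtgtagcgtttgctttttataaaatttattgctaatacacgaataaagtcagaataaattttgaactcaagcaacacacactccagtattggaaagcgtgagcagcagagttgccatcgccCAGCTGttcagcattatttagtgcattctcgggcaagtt
RpL23A: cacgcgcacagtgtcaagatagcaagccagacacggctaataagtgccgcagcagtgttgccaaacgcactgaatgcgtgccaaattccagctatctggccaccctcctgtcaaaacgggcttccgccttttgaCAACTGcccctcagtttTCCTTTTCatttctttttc
RpL14: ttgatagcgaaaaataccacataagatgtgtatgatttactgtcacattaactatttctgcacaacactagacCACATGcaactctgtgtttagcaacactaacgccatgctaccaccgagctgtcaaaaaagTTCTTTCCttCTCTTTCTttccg
RpL34b: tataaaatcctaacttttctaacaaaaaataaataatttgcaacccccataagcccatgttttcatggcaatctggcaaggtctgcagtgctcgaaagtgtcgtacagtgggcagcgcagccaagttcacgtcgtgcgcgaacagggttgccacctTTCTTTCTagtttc
The IDR summit lay at -16 from the start of RpS27, at -88 for RpL23A, at -31 for RpL14 and at -74 for RpL34b, counted in bases along the gene's strand from the start used by most transcripts, as are the motif positions. An E-box was at -19 in RpS27, at -16 in RpL23A and at -63 in RpL14, and RpL34b had none in this stretch. The TCT initiator was found at the start of RpL23A, RpL14 and RpL34b and not of RpS27.

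In 2 further members of this kind the stretch held both the TCT initiator and the DNA replication-related element (DRE), TATCGATA, a site for the factor Dref, and these are shown for that reason. Capitals mark TCT, DRE, E-box and the M1BP motif GGTCACAC on either strand. RpL28 is chr3L:3222939-3223108 on the reverse strand and RpL27 chr3R:25685032-25685201 on the reverse strand.
RpL28: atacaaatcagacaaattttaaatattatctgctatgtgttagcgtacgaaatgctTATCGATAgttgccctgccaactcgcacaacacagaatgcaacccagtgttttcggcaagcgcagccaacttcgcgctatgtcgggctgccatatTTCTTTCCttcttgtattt
RpL27: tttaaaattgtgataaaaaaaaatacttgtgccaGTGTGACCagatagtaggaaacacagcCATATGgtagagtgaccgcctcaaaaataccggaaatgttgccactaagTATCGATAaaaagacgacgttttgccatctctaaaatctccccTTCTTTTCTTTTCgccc
DRE began at -94 in RpL28 and at -40 in RpL27, where the IDR summits lay at -57 and -45.

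Most of the ribosomal protein genes had a reproducible peak. The authors' list of peaks past their threshold on the irreproducible discovery rate (IDR), made on both replicates together, held 1865 peaks, and a gene is called occupied here where an IDR summit was at most 1000 bp from an annotated transcription start. This was so for 59 of the 92 genes (64.1%, exact Clopper-Pearson 95% interval 53.5 to 73.9, which covers counting error only), against 12.4% of all protein-coding genes. Narrowing the window to 500 bp kept the members' share at 64.1% and lowered that of all genes to 10.6%. Since the genes were chosen with earlier results of these data known, their share is a description with no test. The 59 genes had 59 distinct strongest peaks, so no peak was counted for more than 1 of them.

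The strongest peaks belonged to genes of both subunits. Signal is the value that the authors' caller gave each peak, on a scale not given in the sources used here. RpS27 (FBgn0039300), a small subunit protein, had the highest IDR signal of 510 at chr3R:25247400-25247652 and ranked 21 in that list. Its peak had a signal of 276 in replicate 1 and 233 in replicate 3. RpL7 (FBgn0005593) of the large subunit followed with an IDR signal of 423 at chr2L:10200907-10201148, and 205 and 215 in replicates 1 and 3. RpL23A (FBgn0026372), which sits at the exit of the ribosome's peptide tunnel, had 360 at chr3L:1668643-1668867, and 181 and 180 in the replicates. These 3 genes and RpL14, with 266, were the members among the first 100 ranks, and both replicates placed all of them within their own first 111.

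Below these came genes with closely spaced signals. RpL41, whose protein is among the smallest known, had an IDR signal of 244, RpL32 (the rp49 reference gene of fly expression work) 243, RpL34b 235, RpL13A 233, RpL22 218, RpS28b 208, RpL30 205 and RpLP0, the base of the stalk that recruits elongation factors, 202. At RpL41 the replicates gave 105 and 145, at RpL22 111 and 106, and at RpS28b 115 and 90.0. At RpL41 the replicates thus differed by more than its IDR signal did from that of RpL32, so the order of close values is not resolved. At the other end RpL10Ab had 65.0, RpL35A 67.4, RpLP2 67.8 and RpS7 70.1, close to the lowest IDR signal of 62.7. Across the occupied genes the median was 134 (quartiles 84.7 and 187), against 97.4 (74.8 and 141) at the 1668 other occupied genes, so the quartile ranges overlapped. Of the 59 genes, 30 ranked within the first 466 of the 1865 IDR peaks and 6 at rank 1399 or below. The same counts were not made for the other occupied genes.

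Both replicates listed a peak under every one of the 59 IDR peaks, as they did under 1854 of all 1865 IDR peaks. The signals of replicates 1 and 3 at these 59 genes had a Spearman rho of 0.763 and a Pearson r of 0.778 on the log2 scale, given as a description over genes that were selected for reproducible signal and share 2 libraries and a control. Replicate 3 had the higher signal at 39 genes and replicate 1 at 20, with a median ratio of 1.21 against 1.36 over the 1854 IDR peaks seen in both lists. By rank within its own list, replicate 1 placed the peak nearer the top at 41 genes and replicate 3 at 18. The split by rank was not counted over all IDR peaks, so it cannot be called particular to these genes. The ratio of replicate 3 to replicate 1 ran from 0.420 to 2.34. It was lowest at RpS15Aa, with 55.2 in replicate 1 and 23.2 in replicate 3, and next at RpS3A on chromosome 4, with 77.9 and 32.8. At RpL3, the protein near the peptidyl transferase centre, it was highest, with 28.8 and 67.5.

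**Figure D1:**
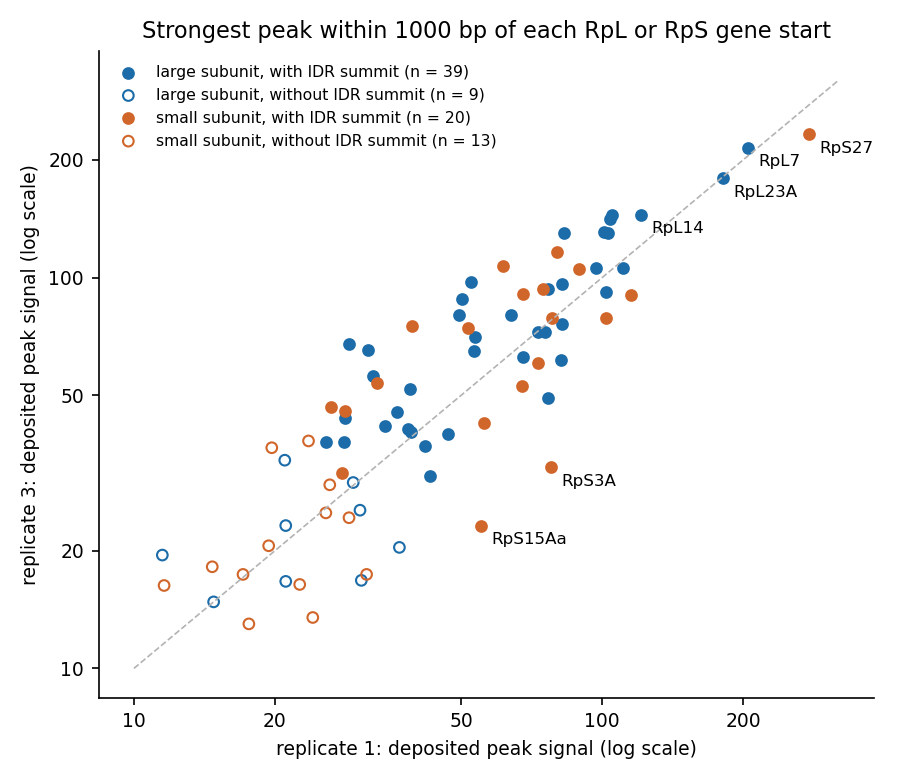
Deposited signal of the strongest peak within 1000 bp of each RpL or RpS gene start in replicate 1 (horizontal) and replicate 3 (vertical), both on log scales, for genes with a peak in both lists, which at open points can be different peaks. Filled points have an IDR summit and open points do not, blue is the large and orange the small subunit, and the dashed line marks equal values; RpS15Aa and RpS3A lie farthest below the line among the filled points.

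Taking from each replicate as many top-ranked peaks as the IDR list holds gave 62 occupied genes in replicate 1 (67.4%, against 12% of all protein-coding genes) and 53 in replicate 3 (57.6%, against 12.2%). Of the 59 genes, 51 were occupied in both of these sets. RpS3A, RpLP1, RpS15Aa, RpL35A and RpL10Ab were occupied in replicate 1 alone, RpS7 in replicate 3 alone, and RpLP2 was among those in neither. In the other direction RpS19b, RpL15, RpL35, RpL38, RpS6 and RpL5 had a top-ranked summit in replicate 1 and RpS18 in replicate 3 without an IDR summit.

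The summits lay close to the starts, mostly just upstream. The distance from the strongest IDR summit to the nearest annotated start had a median of 32 bp (quartiles 11 and 62.5), against 166.5 bp (82 and 328) at the other occupied genes. It was at most 50 bp at 38 of the 59 genes (64.4%, against 14.0% of the other occupied genes) and at most 100 bp at 52 (88.1%, against 32.0%). None lay beyond 500 bp, where 16.4% of the other occupied genes had theirs. With sign, the summit was upstream at 51 genes and downstream at 8, a share of 86.4% that was near the 86.1% of the other occupied genes. More annotated starts make a short distance more likely, and 54.2% of the occupied ribosomal protein genes have several, against 47.3% of the other occupied genes. Among genes with 1 start the median was 48 bp at 27 ribosomal protein genes and 162 bp at 879 others. Measured to the start used by most transcripts it was 52 bp at the 59 members and 171 bp at the 1509 other genes with a summit within 1000 bp of that start. All these distances include summits that lie nearer to another gene's start, which can lengthen them. Counting each summit only for the nearest start lowered the members' share from 64.1% to 58.7% and that of all genes from 12.4% to 8.54%. The members' median distance was then 26.5 bp. That of the other genes was not computed, so part of the contrast may come from such shared summits.

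Some genes departed from this spacing. Among the farthest summits were those of RpLP2 (-257 bp), RpS14a (-217), RpS20 (-214) and RpL34a (-132), all upstream. The farthest downstream was at RpL7, at 27 bp. Replicates placed the summit within a median of 18 bp of each other at the 59 genes, against 27 bp over the 1854 IDR peaks, and the largest gap was 161 bp, at RpS14a. RpL32, RpS14a, RpS28b and RpL26 each had a further IDR summit within 1000 bp, with signals of 132, 70.0, 79.7 and 79.6 at -274, -10, -794 and -39 bp. The further RpS14a summit was thus nearer to the start than the stronger one.

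**Figure D2:**
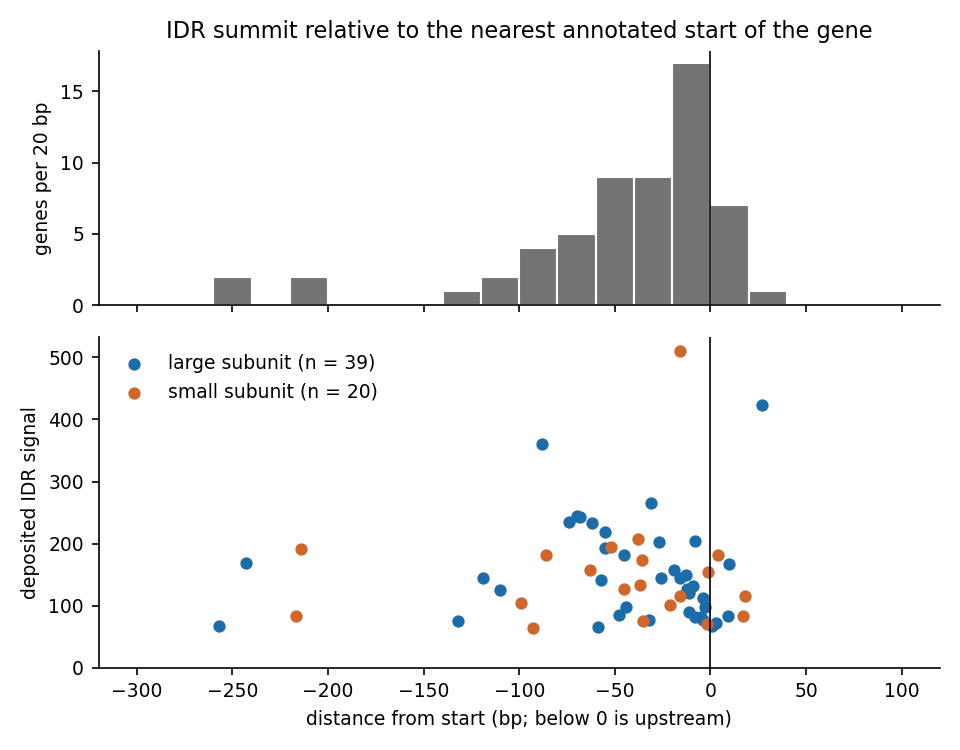
Distance in bp from the nearest annotated start to the strongest IDR summit of the 59 occupied genes, as genes per 20 bp (top) and against the deposited IDR signal (bottom; blue large, orange small subunit). Most summits fall between -100 and the start, and 4 genes lie beyond 200 bp upstream.

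The share of occupied genes was higher for the large than for the small subunit, a difference that was not tested. An IDR summit was found at 39 of 54 large subunit genes (72.2%, 58.4 to 83.5) and 20 of 38 small subunit genes (52.6%, 35.8 to 69.0), with intervals that overlap. Leaving out the families with several copies, it was 30 of 40 (58.8 to 87.3) and 14 of 25 (56.0%, 34.9 to 75.6). The median IDR signal was 141 at the large and 130 at the small subunit genes, and the median distance 27 and 36.5 bp, with quartile ranges that overlapped for both. All 3 stalk proteins, RpLP0, RpLP1 and RpLP2, were occupied. Of the genes whose protein is made as a fusion with ubiquitin or a ubiquitin-like domain, RpS27A was occupied (127, at -45 bp) and RpL40 and RpS30 were not.

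By chromosome, 11 of 14 genes on X were occupied (78.6%, 49.2 to 95.3), 10 of 14 on 3L, 12 of 19 on 2L, 14 of 23 on 3R and 11 of 21 on 2R (52.4%, 29.8 to 74.3), and RpS3A was the 1 member on chromosome 4. The intervals of these shares overlap. The share of all protein-coding genes occupied on each chromosome is not given here. Whether the order of the members' shares differs from that of all genes was not tested.

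Among copies of the same protein gene, the peak usually lay at 1 copy. Of 13 families of similar symbols, with 27 genes, 9 had 1 occupied copy, 3 (RpS14, RpL34 and RpLP0) had every copy occupied, and RpS19 had none. Several of the unoccupied copies carry the suffix -like or are known from the germ line, such as RpS5b, RpS10a, RpS19b and RpL22-like. RpLP0-like and RpL24-like resemble ribosomal proteins in sequence, while their human counterparts act in the assembly of the large subunit.

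In 4 families the other copy had at most a weak peak in 1 replicate. RpS5a had a signal of 182, with 74.9 and 93.5 in replicates 1 and 3, while RpS5b had no peak in the pooled list and 15.9 in replicate 1 alone. RpS10b had 158 (67.7 and 90.9), and RpS10a had only a replicate 3 peak of 19.1. RpL22 had 218, and RpL22-like had no peak in any of the lists. RpL10Ab had 65.0 (42.8 and 31.1), and RpL10Aa a replicate 1 peak of 13.1 alone. For each of these 4 families the unoccupied copy was thus without a peak in the pooled list of 29399 relaxed peaks on the 6 chromosomes, which reaches down into background.

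In the other 5 families with 1 occupied copy, the rest had a pooled peak of lower signal. RpL7-like had 23.1 at -449 bp against 423 for RpL7, and RpL24-like 28.3 at -648 bp against 150 for RpL24. RpL37-2 had 22.2 at 774 bp against 72.4 for RpL37-1, and RpS15Ab 36.3 at -201 bp against 84.0 for RpS15Aa. The summits of these occupied copies lay at 27, -13, 3 and 17 bp, in that order. RpS28b stood at 208, at -38 bp, above RpS28a with 37.7 at 716 bp and RpS28-like with 26.2 at -388 bp. In the RpS19 family, where no copy was occupied, RpS19a had 48.3 at -342 bp and RpS19b 59.3 at -949 bp. Over all 13 families, a pooled summit lay within 100 bp of a start at 2 of 12 unoccupied and 14 of 15 occupied copies. The share of all protein-coding genes was 21.5%. In the 3 families with every copy occupied, all values are those of IDR peaks. The peaks of RpL34b and RpL34a had 235 and 75.9, and those of RpLP0 and RpLP0-like 202 and 98.3. The tandem genes RpS14a and RpS14b, which code for the same protein, had 83.7 and 74.7 at separate peaks, chrX:7933335-7933714 and chrX:7934673-7935052. How reads that fit several copies were handled is not given in the sources used here, so values at near-identical copies are uncertain.

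**Figure D3:**
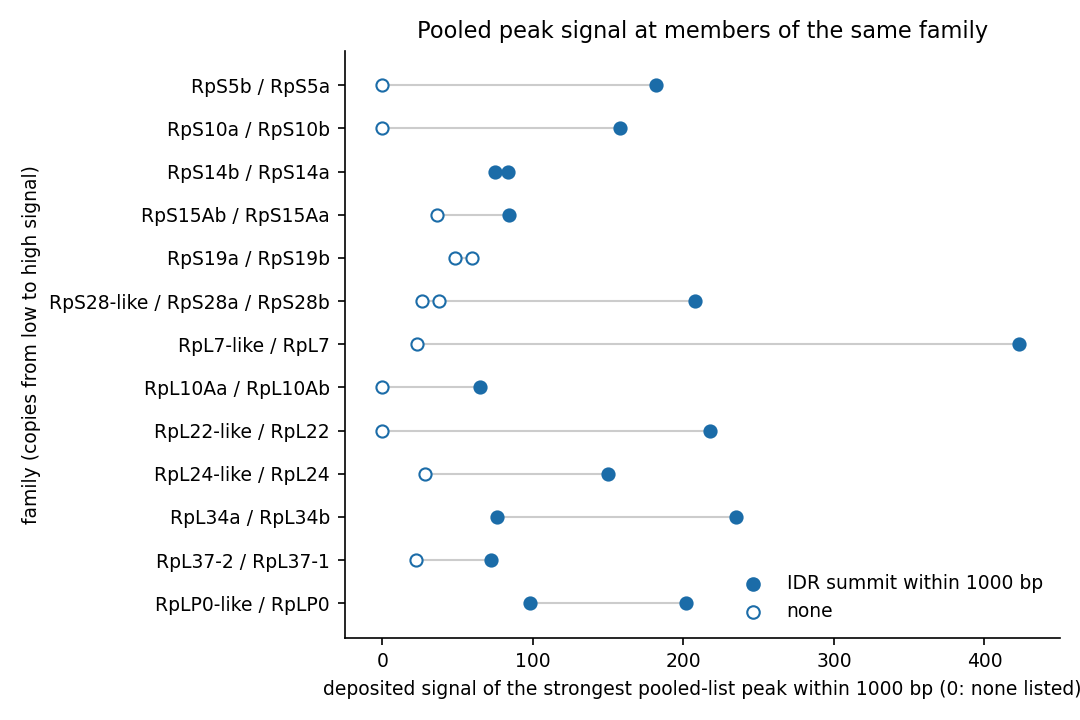
Deposited signal of the strongest pooled-list peak within 1000 bp of a start for the copies in 13 families, named on the vertical axis from low to high signal. Filled points have an IDR summit within 1000 bp and open points do not, and a copy with no pooled peak is drawn at 0; in 9 families exactly 1 copy is filled.

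The 80 bases around the starts of 4 families are shown to compare an occupied with an unoccupied copy. Each ends with 20 bases from the start used by most transcripts on, and capitals mark the TCT initiator, which was the only marked motif found. The stretches are chrX:17148245-17148324 (reverse strand), chr3R:14901544-14901623 (reverse), chrX:19597980-19598059 (forward), chr3R:27652700-27652779 (forward), chrX:9554563-9554642 (forward), chr3R:30022629-30022708 (reverse), chr3L:11822791-11822870 (forward) and chr3R:15037306-15037385 (forward).
RpS5a: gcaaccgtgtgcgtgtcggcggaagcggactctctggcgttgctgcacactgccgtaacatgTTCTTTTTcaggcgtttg
RpS5b: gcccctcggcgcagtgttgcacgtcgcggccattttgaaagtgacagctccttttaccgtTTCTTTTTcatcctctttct
RpS10b: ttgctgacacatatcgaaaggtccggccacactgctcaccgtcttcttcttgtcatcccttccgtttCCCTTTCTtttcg
RpS10a: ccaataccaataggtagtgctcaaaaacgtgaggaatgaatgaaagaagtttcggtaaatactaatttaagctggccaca
RpS28b: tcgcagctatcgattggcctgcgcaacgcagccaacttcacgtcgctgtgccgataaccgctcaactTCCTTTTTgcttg
RpS28a: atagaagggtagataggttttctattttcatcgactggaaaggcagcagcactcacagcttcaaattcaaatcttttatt
RpL10Ab: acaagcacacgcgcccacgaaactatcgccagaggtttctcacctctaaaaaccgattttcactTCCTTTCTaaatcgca
RpL10Aa: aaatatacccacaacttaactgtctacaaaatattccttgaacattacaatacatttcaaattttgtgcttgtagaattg
The occupied copies RpS5a, RpS10b, RpS28b and RpL10Ab all hold the TCT initiator within 10 bp of the start. RpS10a, RpS28a and RpL10Aa do not, while RpS5b holds it and was unoccupied. Over the families, 11 of 15 occupied copies and 4 of 12 unoccupied copies had it. The RpL7 family went the other way, with the initiator in unoccupied RpL7-like and not in RpL7. Outside the families 25 of 44 occupied and 13 of 21 unoccupied members had it.

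Weaker peaks lay within 1000 bp of most unoccupied genes, though right at the start of fewer of them. Of the 33, 28 had a summit of the pooled list within 1000 bp, which brings the members to 87 of 92 (94.6%), against 62.6% of all protein-coding genes. In the separate lists it was 85 (92.4%, against 58.9%) in replicate 1 and 86 (93.5%, against 63.2%) in replicate 3. At this relaxed level most genes of the genome are counted, so the share says less than the distance does. A pooled summit within 100 bp of a start was found for 14 of the 33 unoccupied genes and for 68 of the 92 members (73.9%), against 21.5% of all protein-coding genes.

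The strongest of these peaks fell just short of the IDR list. RpS18 had a pooled signal of 61.7 at 23 bp, with 23.6 and 38.2 in replicates 1 and 3, near RpL10Ab with 65.0 on the other side of the threshold. RpS30 had 59.9 at 2 bp (19.7 and 36.7), RpL39 58.0 at -12 bp (21.0 and 34.1), and RpL15 57.5 at -106 bp (30.4 and 25.4). RpL35 had 55.2, RpL38 55.0 and RpS6, the target of S6 kinase, 49.5 at -16 bp (31.4 and 17.4). RpS19b, with 59.3, had its summit at -949 bp, the farthest of these 8. Replicate 3 had the higher signal at RpS18, RpS30 and RpL39. At RpL38 the strongest peaks of replicates 1 and 3 were different ones, with 36.9 at -69 bp and 20.4 at 741 bp, and at RpL35 too, with 29.4 at -521 bp and 29.9 at 115 bp. The other unoccupied genes included RpS2, RpS3, RpS9, RpS13, RpS15, RpS24, RpL5, RpL6, RpL10, RpL12, RpL21 and RpL40 beside the family copies above. RpL21 had no peak in any list.

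Some unoccupied genes lie where there were few IDR peaks at all. For RpL15, RpL38, RpL5, RpL21 and RpL10 the nearest IDR summit was 4.39, 1.46, 0.669, 0.380 and 0.217 Mb away. RpL15, RpL38 and RpL5 are known as genes of pericentromeric heterochromatin. The 5 genes are 5.43% of the members, against 2.60% of all protein-coding genes that far (200000 bp) from any IDR summit. Genes that far from any IDR summit cannot be occupied, so leaving the 5 out can only raise the share. It was then 59 of 87 genes (67.8%, 56.9 to 77.4), and the share of all protein-coding genes was not recomputed in this way. In contrast RpS13, RpL12, RpS19a, RpL6 and RpL39 had an IDR summit within 5000 bp, the nearest at 2013 bp from RpS13.

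About as many occupied genes shared their peak with a neighbouring start as did not. Another protein-coding gene started at most 500 bp from the summit at 29 of the 59 genes, and there was no such neighbour at 30. The share of the other occupied genes with such a neighbour was not counted. In 28 of the 29 the neighbour was divergent, that is on the opposite strand and upstream, and RpS27A shares its start with Ip259 on the same strand at an equal distance of 45 bp. The start of the ribosomal protein gene was the nearer one in 22. It was farther than that of the neighbour at 6 genes, among them RpS20 (214 bp, against 119 for CG17271), RpL13 (57, against 27 for Dref), RpS14a (217, against 174 for Dhdds), RpL34a (132, against 97 for Trmt61) and RpLP0-like (44, against 43 for 14-3-3zeta). Counting each summit only for the gene with the nearest start left 58.7% of the members and 8.54% of all protein-coding genes occupied.

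A divergent start within 500 bp upstream of the most-used start was counted in the same way at all genes. It was present at 26 of 59 occupied (44.1%) and 9 of 33 unoccupied ribosomal protein genes (27.3%), against 49.2% of the other occupied genes and 25.8% of all protein-coding genes. At RpL13 the shared neighbour Dref encodes the factor that binds DRE, and 1 peak with a signal of 141 counts for both. At RpL28 the neighbour 326 bp away is the initiation factor gene eIF1, and at RpL36 the one 274 bp away is Mybbp1A. These peaks cannot be assigned to either gene from positions alone.

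The TCT initiator was frequent in occupied and unoccupied ribosomal protein genes alike, with shares whose intervals overlap. Its C was within 10 bp of the most-used start, on the gene's strand, in 53 of 92 members (57.6%), against 1.20% of all protein-coding genes. It was in 36 of 59 occupied (61.0%, 47.4 to 73.5) and 17 of 33 unoccupied members (51.5%, 33.5 to 69.2). Read the other way, 67.9% of members with it and 59.0% of those without it were occupied. Outside the list 23 of 114 genes with it were occupied (20.2%, 13.2 to 28.7), against 1645 of 13739 genes without it. Its occurrence in ribosomal protein genes is textbook knowledge and no finding of these data.

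Other promoter motifs were searched on both strands from 250 bp before to 50 bp after the most-used start. DRE was in 32.2% of the occupied and 27.3% of the unoccupied members, against 12.2% of the other occupied genes and 9.23% of all protein-coding genes. M1BP was in 13.6% and 15.2%, against 9.29% and 7.79%. The E-box was in 74.6% (61.6 to 85.0) of the occupied and 63.6% (45.1 to 79.6) of the unoccupied members, against 78.4% and 77.2%. TATAAA was in 40.7% and 54.5%, against 41.8% and 45.5%. The Ohler 6 motif was in 3 and 1 genes. GAGAGAG was in none of the 92, which allows a share of up to 3.93% by the exact interval, against 6.16% of all protein-coding genes. The intervals of occupied and unoccupied members overlapped for every motif. Among occupied members, the median IDR signal was 145 with TCT and 127 without it, and 134 with or without DRE.

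**Figure D4:**
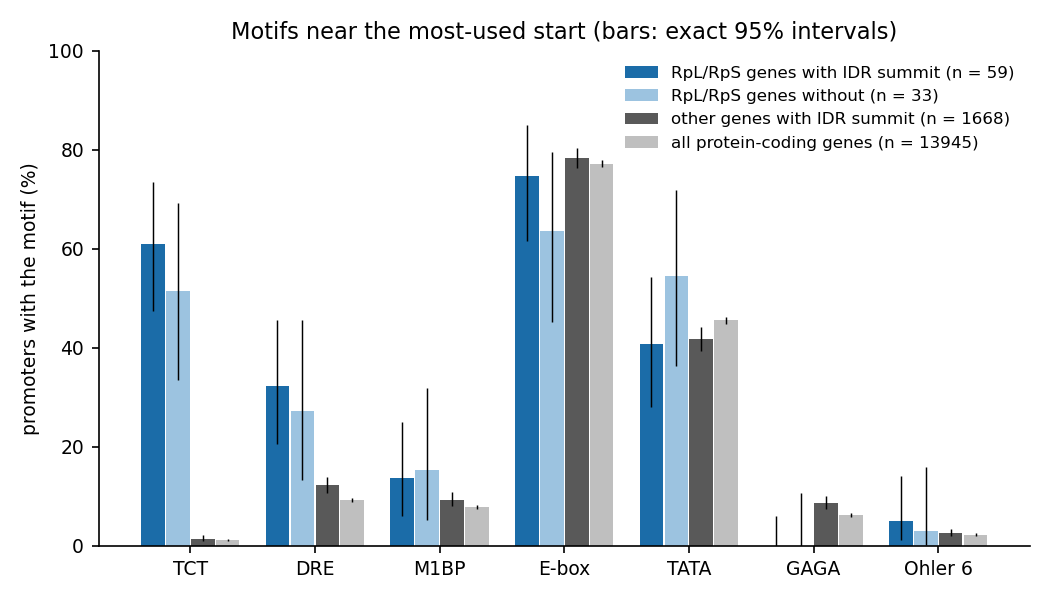
Share of promoters that hold each motif, in percent, for occupied and unoccupied RpL and RpS genes, other occupied genes and all protein-coding genes, with exact 95% intervals as error bars. TCT and DRE are more frequent in both blue groups than in either grey one, while the intervals of the E-box overlap between both blue groups.

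Base composition and gene structure were compared as features that the rule did not use. The GC content of the same window was 39.0% ± 4.60 (SD over 59 genes) in occupied and 35.1% ± 4.98 (SD, n = 33) in unoccupied members, against 39.2% ± 7.78 (SD, n = 13945) in all protein-coding genes. Small nucleolar RNA genes lay within 23 of 59 occupied (39.0%) and 5 of 33 unoccupied members (15.2%). Of such hosts 82.1% (63.1 to 93.9) were occupied, and of the other members 56.2% (43.3 to 68.6). These intervals overlap, which does not show that the shares are alike, and the difference was not tested. Hosts were 0.602% of all protein-coding genes. The part of GC content or gene structure in the detection of peaks was not tested.

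Genes of related function were occupied less often than the cytoplasmic ribosomal protein genes, with shares nearer to the 12.4% of all protein-coding genes. Mitochondrial ribosomal protein genes were occupied in 12 of 73 cases (16.4%, 8.79 to 27.0, an interval that holds the share of all genes), with a median distance of 143.5 bp and 3 within 100 bp. Translation factor genes, with symbols beginning with eIF, eEF or eRF, were occupied in 13 of 54 (24.1%, 13.5 to 37.6), with a median distance of 118 bp and 6 within 100 bp. A list of 32 ribosome assembly genes had 6 occupied (18.8%, 7.21 to 36.4), namely eIF6 (484), Ns2 (174), Rrp40 (116), Nopp140 (96.1), Fib (fibrillarin, 85.8) and nclb (76.7), with IDR signals in parentheses. The intervals of all 3 shares lie below that of the cytoplasmic genes, though eIF6 is in both of the last lists. The translation factor gene eIF1 is counted through the peak that it shares with RpL28, at -326 bp from its own start. The median distances were longer than the 32 bp of the cytoplasmic genes and shorter than the 166.5 bp of the other occupied genes. The TCT initiator was in none of the mitochondrial genes and in 4 of the translation factor genes.

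Among translation factors the summits nearest to a start were at eIF3c (5 bp), eEF1gamma (-22), eIF3a (-30), eEF5 (-39) and eRF1 (-41), with signals of 126, 244, 75.5, 153 and 66.2. The highest signals were at eIF2Bbeta (1180 at -681 bp), eIF6 (484 at -124 bp) and, for mitochondrial genes, mRpL41 (806), mRpS10 (671), mRpS23 (516) and mRpL23 (350). The other occupied mitochondrial genes were mRpL32, mRpL34, mRpS2, mRpL24, mRpL47, mRpL53, mRpL18 and mRpS31, with signals from 122 down to 72.4. The other occupied translation factor genes were eIF1, eIF3h, eIF4EHP, eEF1alpha1, eIF3m and eIF4A, with signals from 193 down to 72.4.

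Of 2 ribosomal protein genes with other symbols, 1 was occupied. Rack1, a scaffold protein on the small subunit, was occupied (110 at -14 bp, with 52.0 and 61.3 in the replicates), and sta, the counterpart of RpSA, was not (47.1 in the pooled list at 41 bp, 15.3 and 37.0). Of 6 genes for factors tied to ribosomal protein promoters or their loss, Dref (141), pzg (91.9, at -129 bp) and M1BP (67.4, at -330 bp) were occupied. Trf2, Myc and Xrp1 were not, with pooled signals of 26.8, 19.1 and 44.5.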

How the data were processed

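Peaks of emc-GFP in 2 embryo samples were deposited by the authors as narrowPeak lists. Used here were, on dm6, the IDR list and the relaxed pooled list, both made over both replicates, and a relaxed list per replicate, and both replicates share a control alignment, per the listing files. The signal column is the authors' own value per peak on an unstated scale. The −log10 q-value column deposited beside it served to break ties in ranks. The aligner, caller and IDR threshold were not named in the labels or files. The lists carry no read counts, so depth is unknown. The same lists on dm3 were not used, since no dm3 annotation was at hand.

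Starts of all transcripts came from Ensembl release 115 (BDGP 6.54) and sequence from RefSeq Release 6. Coordinates are 1-based. A gene was occupied where a summit lay within 1000 bp of a start, and its strongest such peak was described. Neighbours had a start within 500 bp of that summit. The most-used start is the one shared by most transcripts. The TCT initiator was searched with its C within 10 bp of that start.

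The members, lists and motifs were chosen with earlier results of these data known. No test was made: genes are not replicates and there is 1 group. Shares carry exact Clopper-Pearson 95% intervals, and overlap of such intervals is no test of a difference. Named genes were the 12 members of highest and 5 of lowest IDR signal, the 5 farthest summits, all paralog copies and unoccupied members (values for the 8 of highest pooled signal), members nearer to a neighbour's start or in 1 replicate's top-ranked peaks only, and occupied genes of the context lists. Some genes that this rule names are not reported here, though they are counted. In the assembly list 2 symbols had no match in the annotation, and pes was taken out once seen to be peste. Alternatives were the window (500 and 250 bp), the 932 strongest IDR peaks, each replicate's top-ranked peaks, the most-used start, the interval midpoint, the nearest gene, overlap with the start, and a motif window of 100 bp on either side. Steps were tested on planted peaks and motifs. The tools were matplotlib 3.10.9, scipy 1.17.1, pandas 2.3.3 and numpy 2.4.6 under Python 3.11.15.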

Additional observations from a re-analysis of the deposited data

How the results depend on the processing

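Of 49 recomputed values, 42 stayed within the 95% interval of the reported value and 7 moved out of it. With the 932 strongest IDR peaks the share of occupied members was 45.7% (against 6.65% of all protein-coding genes), that of large subunit genes 50% and of small subunit genes 39.5%, and the median signal was 163. That set holds fewer peaks by construction. With either replicate alone the members' share ran from 57.6% to 67.4%, that of large subunit genes from 64.8% to 77.8% and of small subunit genes from 47.4% to 52.6%, the median signal from 62.6 to 76.0 and the median distance from 29 to 37.5 bp. The replicate signals are on the scale of 1 library. The median distance to the most-used start was 52 bp in place of 32 bp. TATAAA was in 18.5% of members within 100 bp of the start, a shorter window, in place of 45.7%. TCT was tied to the start and not recomputed there. The interval of a peak overlapped a start at 55.4% of members and 6.90% of all genes. The large subunit share was above the small subunit share in each of these settings. No paired analysis was possible because all samples form 1 group and no test was made. The depth of the libraries was not given, and a gene without a peak may have had too few reads to show one.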
